A study of Schizosaccharomyces pombe with 25 samples.

Results

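The gene annotation deposited with this fission yeast series was examined for non-coding RNA (ncRNA) genes that lie between protein-coding genes. A gene was taken if it was typed as ncRNA on nuclear chromosome I, IIc or III and if its span, from its smallest start to its largest end, touched no protein-coding gene span on either strand. This held for 433 of 1536 nuclear ncRNA genes (28.2%), with 193 of 682 on chromosome I, 163 of 565 on IIc and 77 of 289 on III. The other 1103 overlapped a coding gene, 812 of them only genes on the opposite strand and 291 at least 1 gene on the same strand. The name of the set has exceptions. The 3 genes near the ends of chromosome III, SPNCRNA.1094, SPNCRNA.1095 and SPNCRNA.1299, lie beyond the last coding gene, and 11 members overlap genes of other kinds than coding genes.

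The series itself is a chromatin immunoprecipitation sequencing study of Schizosaccharomyces pombe with 25 samples in 13 groups, grown in YES medium. CENP-A (Cnp1) was precipitated from wild type, pht1∆, swr1∆ and msc1∆ cells, with and without the exchange cc2∆:cc1 at centromere II. The histone variant H2A.Z (Pht1) was precipitated from wild type, swr1∆ and msc1∆ cells, and Swr1 and Msc1 from wild type. The files used here describe the reference on which chromosome II carries that exchange (IIc) and hold no value of any sample, so no occupancy over the ncRNA genes is reported, each quantity below is a property of the annotation with no replicate, and no test was made between sets of genes.

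Most long ncRNAs of fission yeast are made by RNA polymerase II from start sites in the nucleosome-depleted stretches between genes, often in the direction away from a coding gene, and many are degraded by the nuclear exosome soon after they are made. Others have a lasting function as RNAs, such as the RNA parts of the signal recognition particle and of RNase MRP, or the meiRNA that captures the elimination factor Mmi1 in meiosis. At the centromeres, transcripts of the outer repeats are processed by RNA interference and guide heterochromatin to the DNA that made them.

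The smallest and the best known members are shown first, since the set runs from RNAs of known function to transcripts known only by their extent. Sequences were read from the RefSeq assembly ASM294v3 at the coordinates of the RefSeq genes with the same identifiers, 5′ to 3′ on the gene's strand. SPNCRNA.116 (chrII:1749534-1749589, + strand) and SPNCRNA.118 (chrII:2983907-2983962, + strand) are the shortest members, with 56 bases each, and they are 89.3% identical. They are shown together because they are copies of each other on 1 chromosome, and the capitals mark the 6 positions at which they differ.
SPNCRNA.116: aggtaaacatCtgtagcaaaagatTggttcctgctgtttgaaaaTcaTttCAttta
SPNCRNA.118: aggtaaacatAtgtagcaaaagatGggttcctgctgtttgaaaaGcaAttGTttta
The gene srp7 (chrI:4268662-4268916, + strand) makes the RNA of the signal recognition particle, which brings ribosomes with secretory proteins to the endoplasmic reticulum. It is shown because its annotated extent, 499 bases in the deposited annotation, is 255 bases in RefSeq, and the shorter form is printed.
srp7: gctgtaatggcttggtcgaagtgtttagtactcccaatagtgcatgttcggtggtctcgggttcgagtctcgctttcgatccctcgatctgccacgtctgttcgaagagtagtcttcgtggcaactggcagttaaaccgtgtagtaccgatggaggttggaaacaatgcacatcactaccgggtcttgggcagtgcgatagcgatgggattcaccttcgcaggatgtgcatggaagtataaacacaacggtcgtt
The gene sme2 makes meiRNA, the partner of the meiosis regulator Mei2. The stretch near its 3′ end (chrII:339347-339646, - strand) is shown because it holds 8 of the gene's 9 copies of TNAAAC, the DNA form of the hexamer that Mmi1 is known to bind, which are in capitals.
sme2: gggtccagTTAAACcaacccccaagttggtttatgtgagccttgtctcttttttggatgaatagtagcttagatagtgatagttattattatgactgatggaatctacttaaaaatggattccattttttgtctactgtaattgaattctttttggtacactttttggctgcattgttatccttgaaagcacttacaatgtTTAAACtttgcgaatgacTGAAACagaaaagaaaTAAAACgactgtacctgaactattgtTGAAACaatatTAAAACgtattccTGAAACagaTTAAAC

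The members named by function were few. Of the 433 genes, 28 carried a name in the deposited annotation, and 21 of these were prl genes, a family named for polyadenylated RNAs without long open reading frames. The other 7 were mrp1, srp7, omt3, sme2, meu11, meu3 and meu19. The gene mrp1, for the RNA of the RNase MRP complex that processes ribosomal RNA precursors, lay on chromosome I (1234451 to 1234849, + strand, 399 bases) and stood head to head with SPAC10F6.14c at 374 bases. In the deposited annotation, where it ends at 4269064 and not at 4268916 as in RefSeq, srp7 lay 44 bases from SPAC2C4.06c, tail to tail. Its RNA had a GC content of 51.0% over the 255 bases printed above, and mrp1 had 42.4%. No member whose length was equal in both annotations exceeded 45% (0 of 366).

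Meiosis provided most of the other named members. The gene sme2 was 667 bases long in the deposited annotation and 1562 bases in RefSeq and lay downstream of mrpl8, a mitochondrial ribosomal protein gene, on the same strand at 683 bases in the deposited annotation. The gene omt3 (1001 bases) lay upstream of omt2 at 341 bases, on the same strand, in the stretch between omt2 and mei2, the gene for the RNA-binding protein that starts meiosis. The genes meu11 (414 bases), meu3 (744 bases) and meu19 (749 bases) carry the prefix for transcripts raised in meiosis. The genes meu3 and meu19 were 86.9% identical over 754 aligned bases and lay in the first and the last 100 kb of chromosome III. Of 54 prl genes, 21 were members, from 173 to 1101 bases long with a median of 435 bases, and 10 of the 21 were on the + strand.

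Several well known ncRNA genes were not members, because the rule counts any overlap with a coding gene. The telomerase RNA gene ter1 overlapped SPAC16A10.03c on the same strand, and rrk1, for the RNA of RNase P, overlapped the proteasome gene pre10 on the opposite strand. The genes tos1, tos2 and tos3 all overlapped rec7, a meiotic recombination gene, on the opposite strand. Of the RNAs named nam in RefSeq, for ncRNA associated with Mmi1, nam3 (SPNCRNA.1696, 1662 bases), nam4 (sme2), nam5 (SPNCRNA.230) and nam6 (SPNCRNA.361) were members, and nam1 overlapped mlo3 on the same strand.

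The hexamer of the printed sme2 stretch was counted in the other members too. TNAAAC occurred 2.16 times per kb on the gene's own strand over the 366 members of equal length in both annotations, 2.26 times per kb on the opposite strand, and 2.31 times per kb and strand over all stretches between coding genes of the RefSeq annotation. The hexamer was thus no denser in the members as a set than in the DNA around them. The gene sme2 had 9 copies on its own strand and 1 on the other, or 5.76 per kb, which placed it at rank 23 of 330 paired members of at least 300 bases. Members paired with the same RefSeq gene, such as prl8 and prl9, were counted separately here. SPNCRNA.230 and SPNCRNA.361, both in centromeric repeats, each had 9 copies on their own strand and 1 on the other, or 8.32 and 8.27 per kb. These 2 genes are 98.2% identical over 1072 bases, so their counts are not independent. A match is a string of letters and not a bound site.

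Members were short and almost never spliced. Their median length was 609 bases, with quartiles of 390 and 1001 bases and a range from 56 to 5123 bases. Of the 433 genes, 109 (25.2%) were longer than 1000 bases, 19 were longer than 2000 bases and 50 were shorter than 200 bases. The ncRNA genes that overlapped a coding gene had a median of 1215 bases, and 681 of 1103 (61.7%) were longer than 1000 bases. The rule itself bears on this comparison, since a gene that overlaps nothing must fit between its neighbours, and long genes meet the next coding gene more often. Only SPNCRNA.159 had more than 1 exon (1 of 433, 0.231%), against 3 of 1103 overlapping ncRNA genes and 2507 of 5123 protein-coding genes (48.9%). SPNCRNA.159 (chromosome I, 776272 to 777066, + strand) had exons of 268, 170 and 238 bases and introns of 49 and 70 bases, and RefSeq gives it a single exon and 1060 bases.

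Most of the 10 longest members stood close to a coding gene, in stretches that left them little room. The stretches of SPNCRNA.1164, SPNCRNA.672 and SPNCRNA.1572 measured 6772, 3928 and 3387 bases, so the length of these members itself limited the distance. SPNCRNA.1164 (5123 bases, chromosome III, 966133 to 971255) began 118 bases from gsf2, which encodes a flocculin of the cell surface, head to head with it. SPNCRNA.672 (3403 bases) began 129 bases from rad15, the gene for a helicase of transcription factor TFIIH, also head to head. SPNCRNA.867 (3271 bases) ended 82 bases before mfc1, a copper transporter gene of spore formation, on the same strand. SPNCRNA.1572 (2889 bases) ended directly at the first base of gsf1, whose product represses gsf2, with 0 bases between them. SPNCRNA.934 (2832 bases), SPNCRNA.1443 (2796 bases), SPNCRNA.1116 (2697 bases) and SPNCRNA.1669 (2258 bases) lay 171, 540, 39 and 150 bases from per1, rpl26, SPCC320.03 and SPBC56F2.05c. The other 2 of the 10 longest, SPNCRNA.360 (2695 bases) and SPNCRNA.372 (2494 bases), lay in the centromeric interval of IIc, 9627 and 8488 bases from the nearest coding gene. At the other extreme, SPNCRNA.386, SPNCRNA.198 and SPNCRNA.83 measured 65, 66 and 71 bases, after the printed pair of 56 bases.

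**Figure D1:**
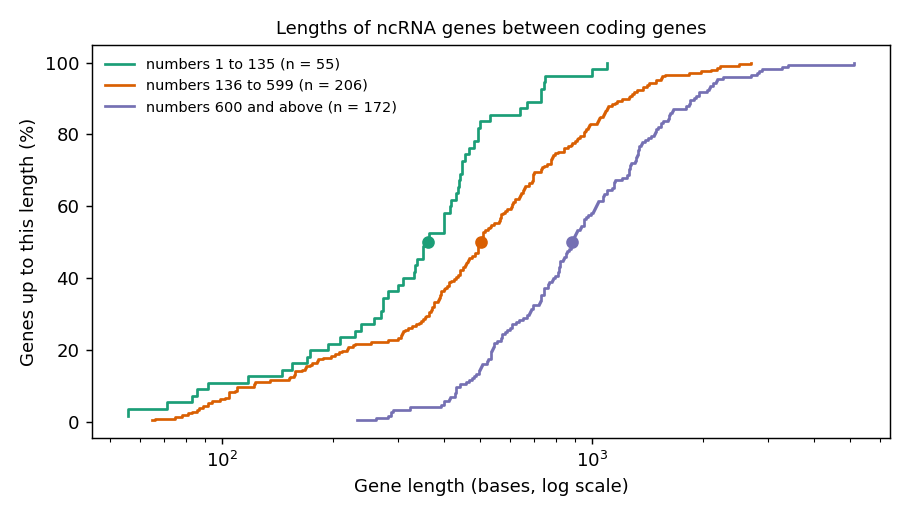
Cumulative share of ncRNA genes between coding genes (y axis, percent) up to a given length (x axis, bases, log scale), in 3 ranges of the SPNCRNA identifier number, with a dot at each median. The medians were 362 bases for numbers 1 to 135, 501.5 bases for 136 to 599 and 885.5 bases for 600 and above, and the 3 curves keep that order over most of their height.

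The number in the systematic identifier separated members that differed in length and strand. Ranges of 1 to 135, 136 to 599 and 600 and above were chosen after the values were seen, at the number where the numbering returns to the left end of chromosome I and at the widest skip in the numbering. The low range gave 55 members of 114 ncRNA genes (48.2%), the middle range 206 of 343 (60.1%) and the high range 172 of 1079 (15.9%). Median lengths rose from 362 to 501.5 and 885.5 bases in that order. None of the 37 ncRNA genes numbered from 550 to 599 was a member. None of the 172 members in the high range was shorter than 100 bases, against 6 and 13 in the low and the middle range.

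Members were mostly on the + strand. Of the 433 members, 308 (71.1%) were on the + strand, against 570 of 1103 overlapping ncRNA genes (51.7%) and 2541 of 5123 protein-coding genes (49.6%). Almost all of that surplus came from 1 range: 197 of 206 members with numbers from 136 to 599 (95.6%) were on the + strand, against 31 of 55 (56.4%) in the low range and 80 of 172 (46.5%) in the high range. Without the middle range the share on the + strand was 48.9% of 227 members. In number order, 81 members in a row were on the + strand, from SPNCRNA.284 to SPNCRNA.441. Of the 9 members of the middle range on the - strand, 6 were numbered between 500 and 549. Among the overlapping ncRNA genes of the middle range, 104 of 137 (75.9%) were on the + strand, so the surplus was seen there too. These include the 37 genes numbered 550 to 599, of which 17 were on the + strand, so those numbers showed no surplus. Why the annotation gives most genes of the middle range 1 strand was not tested.

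**Figure D2:**
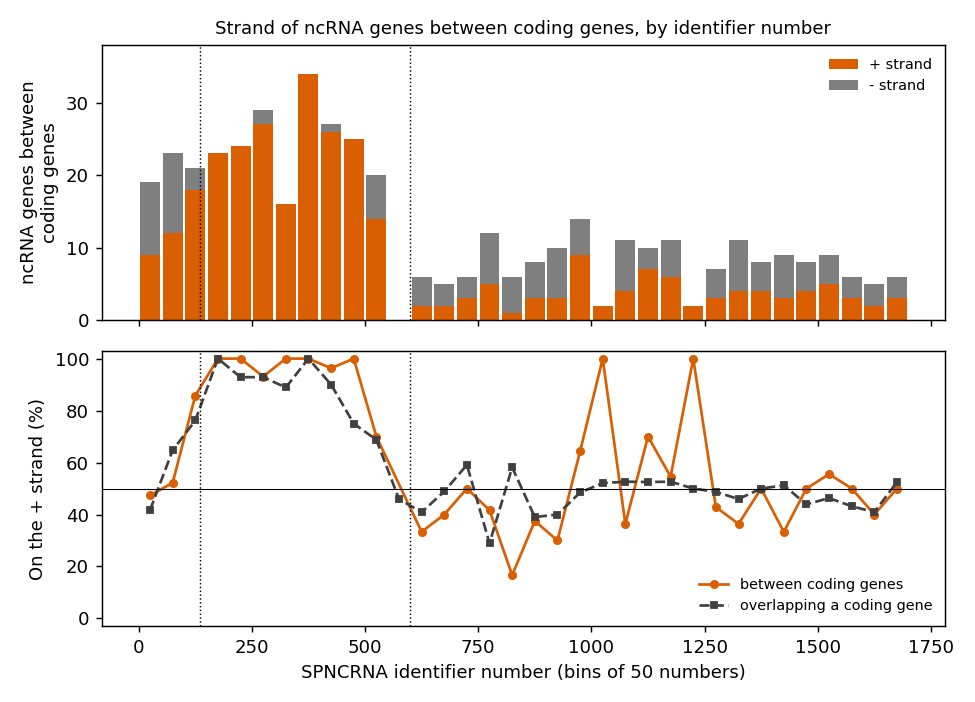
Upper panel: number of ncRNA genes between coding genes (y axis) in bins of 50 identifier numbers (x axis), split by strand. Lower panel: share on the + strand (y axis, percent) for these genes (circles) and for ncRNA genes that overlap a coding gene (squares). Dotted lines mark the range from 136 to 599, in which 197 of 206 members were on the + strand, and bins with few genes above 600 scatter widely around 50%.

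The RefSeq annotation of ASM294v3 gives most of these genes the same strand. Of the 206 members of the middle range, 175 were paired there by identifier, and 166 (94.9%) were on the + strand. The strand was the opposite one for 3 of them, SPNCRNA.287, SPNCRNA.291 and SPNCRNA.316, and for SPNCRNA.87 of the low range. In RefSeq, another ncRNA gene on the opposite strand overlapped 113 of the 175 (64.6%), against 60.4% of 48 in the low range and 77.4% of 164 in the high range. All 1621 lncRNA and ncRNA genes of RefSeq that overlapped no coding gene were 53.7% on the + strand.

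Copies of 1 sequence were also annotated on the + strand where they ran in opposite directions. BLAST alignment of the 387 paired members found 18 pairs with at least 80% identity over at least 80% of the shorter gene, which joined 26 members into 10 families. In 14 of the pairs both genes had numbers from 136 to 599, and both genes of all 14 were annotated on the + strand. In 10 of those 14 pairs the sequences matched in opposite directions, so that copies of 1 sequence were annotated as RNAs from opposite strands of it. Examples are SPNCRNA.389 and SPNCRNA.390, which lie on either side of mat3-Mm and mat3-Mc in the mating-type region and were 100% identical over 787 bases in reverse, and SPNCRNA.482 and SPNCRNA.485 of centromere III, 100% identical over 492 bases in reverse. Of the other 4 pairs, 3 matched in the same direction, the printed pair, meu3 with meu19, and SPNCRNA.84 with SPNCRNA.95. The last 2 are named IRC1-L and IRC1-R in RefSeq, after the boundary repeats of centromere I, and lay on opposite strands.

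Members lay close to coding genes, mostly on the side of the gene's 5′ end. The median distance to the nearest coding gene was 238 bases, with quartiles of 99 and 565 bases. Of the 433, 109 (25.2%) were less than 100 bases away, 312 (72.1%) less than 500 bases and 65 (15.0%) more than 1000 bases. For 318 members (73.4%) the nearest coding gene turned its 5′ end to them. Of these, 182 were head to head with it (42.0% of all members, 95% Wilson interval 37.5 to 46.7%) and 136 (31.4%) lay upstream on the same strand. Of the 115 members at a 3′ end, 55 (12.7%) were tail to tail and 60 (13.9%) lay downstream on the same strand. Neither the median distance nor the 73.4% is set against a background value. The length of the stretch that holds a member limits the distance. In a divergent stretch the coding genes on both sides turn their 5′ ends inward, and 51.4% of 430 members lay in such stretches. The classes of stretch alone therefore give a large part of the 73.4%.

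Head to head members were the closest as a class, at a median of 166 bases, before tail to tail members at 200 bases, upstream members at 310 bases and downstream members at 701 bases. None of the 30 centromeric members was head to head and 18 were downstream on the same strand, and without these 30 the medians were 166 bases head to head, 174 tail to tail, 275.5 upstream and 264 downstream. Orientation rests on the annotated strand, which was almost always + in the middle range, and it differed between the number ranges. Among members at a 5′ end, 77 of 150 (51.3%) of the middle range were on the opposite strand to the gene, against 27 of 39 (69.2%) in the low range and 78 of 129 (60.5%) in the high range. Over all members the head to head share was 49.1% in the low range, 37.4% in the middle range and 45.3% in the high range. These differences were not tested.

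**Figure D3:**
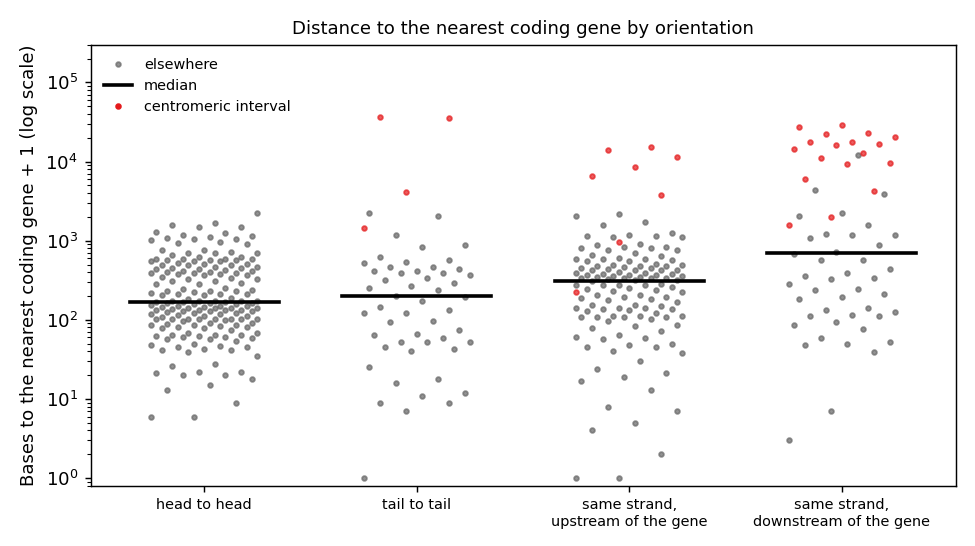
Distance from each of the 433 members to its nearest protein-coding gene (y axis, bases plus 1, log scale) in 4 classes of relative orientation (x axis). Each dot is a gene, red in the centromeric intervals, and black bars are the medians of 166, 200, 310 and 701 bases; the downstream class holds 18 of the 30 centromeric genes.

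The rule's edge runs through a continuum of distances. SPNCRNA.1572, SPNCRNA.1600 and prl58 were members with 0 bases between them and gsf1, dcd1 and SPAC20G8.02, and SPNCRNA.970 and SPNCRNA.99 had 1 and 2 bases. Just outside, SPNCRNA.881 overlapped SPAC24C9.08 by 1 base and SPNCRNA.413 overlapped SPBC405.06 by 2 bases. In all, 17 members lay within 10 bases of a coding gene, and 9 other ncRNA genes overlapped coding genes by at most 10 bases and 142 by at most 100 bases. The count of members therefore follows the annotated ends of the coding transcripts: with coding genes reduced to their coding bases and the introns between these, 778 ncRNA genes were free of them, and the median distance of the 433 members rose to 521 bases.

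The stretches between coding genes were counted next, since they set where a member can lie. There were 3578 such stretches with 2.38 Mb in all (19.0% of the 3 chromosomes), and 301 of them (8.41%) held a member. The members covered 12.2% of this DNA. Stretches between divergent coding genes, whose 5′ ends face each other, made up 30.4% of the stretches and 41.3% of their length and held 221 of 430 members (51.4%). Tandem stretches held 180 members (41.9%) and convergent stretches 29 (6.74%). Per Mb of stretch, this came to 225 members in divergent, 157 in tandem and 114 in convergent stretches. The convergent value includes the centromeric interval of III, 78172 bases with 7 of the 29 members. The tandem value includes those of I and IIc, with 9 and 14 members.

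The share of stretches with a member rose with their length. Stretches with a member had a median of 1652 bases and those without of 304 bases. A member was present in 0.499% of stretches up to 500 bases, 8% of those from 501 to 1000 bases, 26.1% from 1001 to 2000 bases, 50.3% from 2001 to 4000 bases and 78.9% of those longer than 4000 bases. A member was present in 15.1% of divergent, 6.05% of tandem and 3.45% of convergent stretches of any length. From 1001 to 2000 bases, a member was present in 29.1% of 268 divergent, 21.3% of 183 tandem and 29.2% of 24 convergent stretches. Their Wilson intervals overlap, which does not show that the shares are equal. From 2001 to 4000 bases the shares were 54.8% of 84 divergent, 50% of 64 tandem and 18.2% of 11 convergent stretches, and above 4000 bases 81.25% of 16, 73.7% of 19 and 100% of 3.

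**Figure D4:**
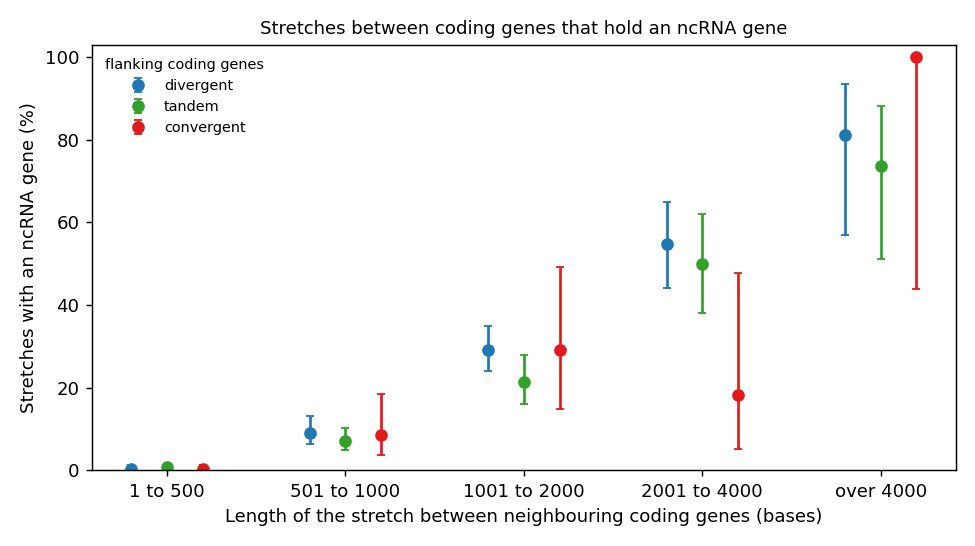
Share of stretches between neighbouring coding genes that hold at least 1 ncRNA gene (y axis, percent, with 95% Wilson intervals) by the length of the stretch (x axis) and the orientation of the flanking coding genes (colours). The share rises with length in divergent and tandem stretches, from under 1% up to 500 bases to 81.25% and 73.7% above 4000 bases, and the intervals of the 3 orientations overlap within each length class.

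Most occupied stretches held a single member. This was so for 225 stretches, in which the member filled a median of 40.6% of the length, and 50 stretches held 2 members and 19 held 3. The 3 fullest were the centromeric intervals. The next was the stretch of 5952 bases between pcs2, a gene of the monopolin complex, and hsr1 on chromosome I (1951509 to 1957460), with 6 members, SPNCRNA.778 to SPNCRNA.782 and SPNCRNA.784, of which 4 were on the + strand. Members also overlapped each other and other ncRNA genes: 184 (42.5%) overlapped another ncRNA gene, 136 of them at least 1 on the opposite strand. The 11 members that overlapped genes of other kinds were 6 at snoRNA genes, 2 at tRNA genes and 3 at pseudogenes.

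Density per Mb of chromosome was similar on the 3 chromosomes and varied along each. Chromosome I held 34.6 members per Mb, IIc 35.9 and III 31.4, and all 3 together 34.4. Bins of 100 kb held a median of 3 members, from 0 in 19 of 127 bins to 14 in the bin of the IIc centromere. The next bins were 5.4 to 5.5 Mb on chromosome I with 12 members, and its first 100 kb and its centromeric bin with 11 each. The longest stretch with no member measured 325 kb, on chromosome III from SPNCRNA.51 to SPNCRNA.504, against 183 kb on I and 263 kb on IIc. The first and last 100 kb of the chromosomes held 47 members (78.3 per Mb), the centromeric intervals 30 (179 per Mb) and the arms 356 (30.2 per Mb). Per Mb of stretch between coding genes, the density was 199 on I, 181 on IIc and 144 on III, or 180 overall and 181 outside the centromeric intervals. The centromeric intervals are themselves free of coding genes, so their values are on the same scale, with 230 per Mb on I, 277 on IIc and 89.5 on III. The value of 78.3 per Mb for the chromosome ends is not on that scale. Their first 100 kb held 54760 bases of such stretches on I, 56076 on IIc and 23234 on III. On I and IIc this was more than in any bin of the arms. Density per Mb of stretch was not computed for the ends and the arms.

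**Figure D5:**
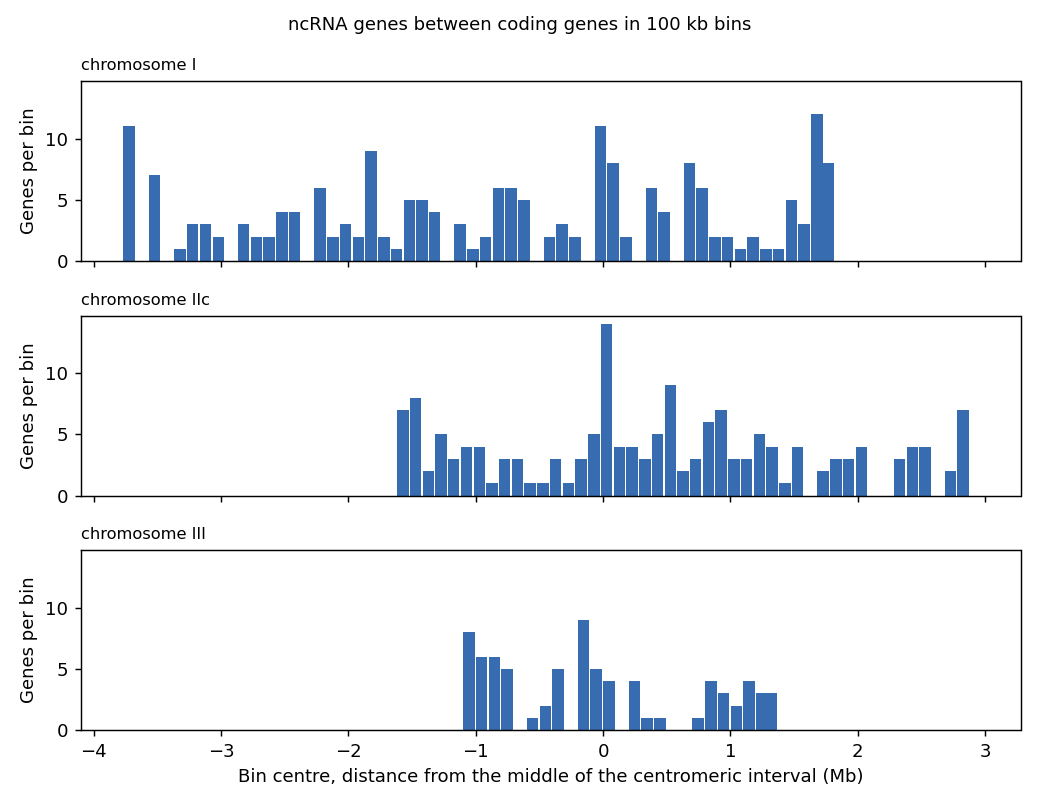
Number of ncRNA genes between coding genes in bins of 100 kb (y axis) along chromosomes I, IIc and III (3 panels), placed by distance from the middle of the centromeric interval in Mb (x axis). The bin of the IIc centromere reached 14, and the highest bin of chromosome I (12) lay 1.68 Mb to the right of its centromere.

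The centromeric intervals held the 5 most remote members and 28 of the 65 that lay more than 1000 bases from a coding gene. These intervals run from per1 to emc5 on chromosome I, from rpb1 to yox1 on IIc and from chk1 to SPCC4B3.18 on III, and hold 9, 14 and 7 members. Of these 30 genes, 28 were on the + strand and 27 bore numbers of the middle range. Their median distance to a coding gene was 12167 bases, against 204 bases for the 403 members elsewhere. The 5 farthest of all members were SPNCRNA.484 (36849 bases from SPCC4B3.18), SPNCRNA.485 (35040 bases), SPNCRNA.483 (28787 bases from chk1), SPNCRNA.482 (26984 bases) and SPNCRNA.368 (23063 bases from rpb1). SPNCRNA.483 and SPNCRNA.484 were also the members of highest GC content among those of equal length, at 44.6% and 44.3%, and SPNCRNA.363 of IIc had the lowest, at 19.1%.

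Repeated sequence was more common in these genes than in the other paired members. Of the 30, 4 had only 50-base stretches that occur once in the RefSeq genome, and 17 had none that do, so that a read of that length from those 17 has more than 1 possible origin. In the arms, 308 of 317 paired members (97.2%) were unique throughout and only SPNCRNA.389 had no unique stretch. In the first and last 100 kb, 27 of 40 were unique throughout and 4 had no unique stretch. Of the 26 members in sequence families, 17 lay in centromeric intervals. The largest family joined SPNCRNA.232 and SPNCRNA.234 of centromere I to SPNCRNA.359, SPNCRNA.362 and SPNCRNA.371 of IIc.

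The GC content of members was closer to that of the DNA between coding genes than to that of coding genes. The median GC content was 32.3% over 366 members of equal length in both annotations, with quartiles of 30.1 and 35.0%. It was 35.6% in 1042 ncRNA genes that overlap a coding gene, 36.8% in coding genes, 31.9% in the pooled stretches between coding genes and 36.1% in the nuclear chromosomes. As a median over the 3426 stretches longer than 100 bases, the value between coding genes was 31.25%, below the median of the members. The middle range had the lowest median, 31.04%, against 31.8% in the low and 33.7% in the high range.

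Windows from 250 bases before to 50 bases after the annotated start were searched for 2 promoter motifs. TATAAA on the gene's strand was found in 113 of 366 members (30.9%), in 28.1% of overlapping ncRNA genes and in 30.2% of 5112 coding genes. CAGTCACA, the HomolD box of ribosomal protein promoters, was found on the gene's strand in 3 of 366 members (0.820%) and in 1.58% of coding genes, and on either strand in 7 members and 2.68% of coding genes. SPNCRNA.756, among these 7, had the box on the opposite strand, 40 bases before its start, and stood head to head at 78 bases with rlp7, a ribosome assembly gene. Neither motif contains the other, and a match is a description of these letters only.

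Some coding gene families had members next to them. A member lay in a stretch beside 584 of 5123 coding genes (11.4%), beside 16 of 131 ribosomal protein genes (12.2%), 11 of 131 meiosis genes named mug or meu (8.40%) and 0 of 11 histone genes. The count was 3 of 8 (37.5%) for the hexose transporters of the ght family. SPNCRNA.1120 (1335 bases) filled most of the stretch between ght8 and ght1, head to head with ght8 at 53 bases and tail to tail with ght1 at 353 bases. SPNCRNA.603 (878 bases) stood head to head with ght3 at 400 bases. Downstream of pho1, the gene for a secreted acid phosphatase, SPNCRNA.446 (622 bases) lay on the same strand at 3118 bases and nearer to SPBP4G3.03, at 260 bases. Counts over lists this small are a description and were not tested.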

How the data were processed

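The annotation, chromosome lengths and list of sequence names hold positions in bases, deposited by the authors without normalisation. Build ASM294v2 and the tools bedtools, deepTools 2.5.3, SAMtools, Bowtie2 and BWA are given in the submitters' processing notes. The list of names was not used, and no sample value was analysed here.

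Gene spans run from the smallest start to the largest end per identifier. Distance is the number of bases between spans, and orientation is relative to the nearest protein-coding gene. A centromeric interval is the longest stretch between coding genes of a chromosome. Genes were paired by identifier with the RefSeq annotation of ASM294v3 (387 of 433 members, 9 by synonym). Some members were paired with the same RefSeq gene, so counts of paired members include some sequences more than once. Sequence was read only there, at its own coordinates. Composition and motif shares over the set of members came from the 366 of equal length. The printed sequences, the GC content of srp7 and the hexamer counts and rank of single genes came from paired genes of any length. So did the unique stretches and the alignments. On I and III, all 896 ncRNA genes of equal length had equal starts. No promoter table was used, so windows from 250 bases before to 50 after RefSeq starts were read, a choice made after the files were seen.

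The members and lists were chosen with earlier results of these data known. The genes named are the 10 longest, 5 shortest and 5 farthest members, those with at least 3 exons, centromeric members, members of the fullest stretches and listed names (pho84, tgp1, prt, prt2, nc-tgp1, nam2 and nam7 were not found by name). Members of sequence families, those at the rule's edge and the GC, strand and motif examples were named after their values were seen. Alternatives changed the overlap rule, the coding span, bins, chromosomes and ends. The geometry was tested on simulated data. Python 3.11.15, numpy 2.4.6, scipy 1.17.1, matplotlib 3.10.9 and BLAST 2.17.0 were used.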

Additional observations from a re-analysis of the deposited data

How the results depend on the processing

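Of 48 alternative values, 32 stayed within the 95% interval of the main value or, for counts, within 1.5 times of it. The number of genes rose from 433 to 1245 when only overlap on the same strand counted, to 778 with coding spans cut to the coding bases and to 734 when an overlap had to cover at least 50% of the ncRNA gene. Each of these 3 rules only loosens the main rule, so all 433 members were among the genes by construction. With RefSeq gene spans, an unplanned alternative limited to paired genes, 491 ncRNA genes were free of coding genes. These included 375 of the 387 paired members, so membership also depends on the gene models. Of the 3 rules, the first 2 moved the median length from 609 to 1008 and 703.5 bases, and under the third the median length was not computed. Leaving out identifier numbers 136 to 599 moved it to 743 bases. Leaving out that range, a choice made after seeing the data, also lowered the density from 34.4 to 18.1 per Mb and the share on the + strand from 71.1% to 48.9%, and within that range alone the divergent share was 46.6% in place of 51.4%. Without centromeric intervals and chromosome ends, the density was 30.2 per Mb and the median distance 179 in place of 238 bases, and with coding bases as spans that distance was 521 bases. Without chromosome I, 0 of 240 members had more than 1 exon, since SPNCRNA.159 lies there. Counting either strand raised the share with TATAAA from 30.9% to 48.1% and that with TNAAAC from 70.8% to 85.0%. The head to head share of 42.0% ran from 40% to 46.3% under 7 of its 8 alternatives, and was 37.4% for members numbered 136 to 599 alone. No paired analysis was possible because the files hold no value of a sample. No read depth enters these values, and their precision is limited by the number of genes and by the annotated ends.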
